A study of Mus musculus with 24 samples.

Results

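The transcripts of 8 cytokine genes were followed through 4 derivatives of 1 mouse mammary carcinoma line: Il7, Il15, Il18, Il33, Il34, Tslp, Csf1 and Lif. They were found by symbol in the batch 2 count table and by the same Ensembl identifiers in the batch 1 table. All 8 have a row among the 55471 genes of batch 1, and 5 of them (Il7, Il33, Il34, Csf1 and Lif) have one among the 13915 genes of batch 2. The batch 2 table lists only genes that reach at least 10 counts in some library, and Il15, Il18 and Tslp are reported as not detected there. Il7 headed the choice because the study had picked it on these same libraries, so its levels are described here and are given no test.

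EO771 (spelled E0771 in the labels) arose as a spontaneous mammary tumour in a C57BL/6 mouse. The X2 cells are the control that received the empty retroviral vector. The CCR7 cells received the same vector with mouse Ccr7 cDNA and were sorted for absence of podoplanin (PDPN). CCR7-PDPN is the PDPN-positive sort of the CCR7 cells, and X2-PDPN the sort of X2 cells that had gained PDPN spontaneously. All 4 derivatives carry the vector and the tdTomato reporter, were sorted without clonal selection and were grown in vitro. Each group is 4 technical replicates of 1 cell population, so p-values measure only the spread between those libraries and not the spread between independently made derivatives. Batch 1 holds X2, CCR7 and CCR7-PDPN and batch 2 holds X2, X2-PDPN and CCR7-PDPN, which gives 24 libraries of 22275468 to 35721027 counted reads.

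Several of these cytokines share receptor parts or a family. IL-7 and TSLP both signal through the IL-7 receptor alpha chain, with the common gamma chain (Il2rg) for IL-7 and Crlf2 for TSLP, and IL-7 is known for keeping lymphocytes alive. IL-15 is presented on its own alpha chain to lymphocytes that carry Il2rb and Il2rg. IL-18 and IL-33 are members of the IL-1 family without a secretion signal: IL-18 is cut by caspase-1, and IL-33 is released from the nucleus of damaged cells. CSF1 and IL-34 are the ligands of the macrophage receptor CSF1R, and LIF belongs to the IL-6 family and signals through LIFR and gp130 (Il6st).

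The labels held in the libraries. Mean Ccr7 was 0.653 and 0.644 TPM (a transcript level scaled for gene length and for library size) in the X2 groups and 1.25 TPM in X2-PDPN, against 5311 to 5911 TPM in the 3 groups with Ccr7 cDNA. Mean Pdpn stood at 49.9 to 52.9 TPM in the PDPN-positive sorts and at 0.128 to 0.853 TPM in the others. The keratin Krt8 was high (425 to 560 TPM), while Krt18, Epcam and Cdh1 were at most 0.55 TPM where listed, and the mesenchymal genes Vim and Twist1 were abundant, so the epithelial label rests on 1 of 4 markers. Of 6 leukocyte markers, Cd3e was at 0 and Ptprc at most 0.0159 TPM in batch 1, but the sum of the 6 still followed the groups, between 19.4 and 22.8 TPM in X2, 10.1 and 12.9 TPM in CCR7, and 8.95 and 11.8 TPM in CCR7-PDPN. In batch 2, where 3 of the 6 are listed, that sum ran from 21.3 to 25.4 in X2, from 23.4 to 25.1 in X2-PDPN and from 8.89 to 9.58 in CCR7-PDPN. Lyz2, a myeloid lysozyme, made most of the X2 sum (19.4 and 21.4 TPM) and fell to 2.01 and 1.60 TPM in CCR7-PDPN, whereas the B cell gene Cd79a was higher there (8.32 and 7.51 TPM against 1.27 and 1.47). The part of these markers in the results that follow was not tested. In bulk RNA, fewer cells with a transcript and less transcript per cell cannot be told apart.

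Among the promoters of these genes, the one printed is that of Lif, the member with the largest tested fall. The RefSeq promoter table of GRCm38.p6 holds 4 of the 8 members (Il18, Il33, Csf1 and Lif). The stretch is chr11:4257318-4257556 on the plus strand, the 239 bases before the annotated start, and capitals mark the single match to TGANTCA, the AP-1 motif, whose first base lies at position -217 from the start.
Lif: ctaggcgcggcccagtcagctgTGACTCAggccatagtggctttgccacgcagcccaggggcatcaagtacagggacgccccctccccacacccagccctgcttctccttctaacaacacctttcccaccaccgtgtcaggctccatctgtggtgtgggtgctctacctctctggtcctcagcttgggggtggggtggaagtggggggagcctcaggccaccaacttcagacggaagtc
TGANTCA was sought on both strands and occurs in 7.81% of the 32851 promoters in the table, taken over up to 250 bases before each start. Neither GAAANNGAA, an interferon-response element core found in 8.56% of them, nor TTCNNNGAA, a STAT site found in 8.30%, occurs in the 239 bases of Lif. The 250 bases before Csf1 hold none of the 3 motifs. These matches describe letters in a window and were not read against the expression values.

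Il7 was transcribed at overlapping low levels in X2, CCR7 and X2-PDPN cells and was nearly lost in CCR7-PDPN cells of both batches. The gene (ENSMUSG00000040329) lies on the minus strand of chromosome 3 at 7569994 to 7613760 in GRCm38. In batch 1 the X2 libraries stood at 1.70, 1.65, 1.92 and 1.78 TPM (60 to 92 reads) and the CCR7 libraries at 1.71, 1.71, 1.67 and 1.86 TPM (62 to 84 reads). The CCR7-PDPN libraries stood at 0.0825, 0.125, 0.138 and 0.0435 TPM, which are 2 to 6 reads each. No CCR7-PDPN library came near the other 8, whereas the X2 and CCR7 libraries overlapped throughout.

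Batch 2 gave the same order. Il7 was 1.65, 1.38, 2.00 and 1.52 TPM in X2 and 1.72, 1.64, 2.16 and 1.83 TPM in X2-PDPN. In CCR7-PDPN it was 0.172, 0.210, 0.125 and 0.143 TPM, or 6 to 10 reads a library. Here too the X2 and X2-PDPN libraries overlapped and CCR7-PDPN lay apart from both.

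The mean in CCR7-PDPN was 5.52% of X2 in batch 1 and 9.91% of X2 in batch 2. On the log2 scale of the edgeR fit, Il7 in CCR7-PDPN differed by -4.10 (SE 0.22) from CCR7, by -4.13 (SE 0.22) from X2 of batch 1, by -3.30 (SE 0.23) from X2 of batch 2 and by -3.45 (SE 0.23) from X2-PDPN. By contrast, CCR7 differed from X2 by -0.03 (SE 0.13) and X2-PDPN from X2 by 0.15 (SE 0.14). The PDPN difference in the cells with CCR7 minus that in the cells without was -4.25 (SE 0.27), a value that also contains any difference between batches, since the CCR7 pair was sequenced in batch 1 and the X2 pair in batch 2. The 13 other genes tested within 5 Mb of Il7 had median log2 fold changes between -0.25 and 0.10 in the 6 comparisons. Gm16685, which overlaps Il7 on the other strand, had at most 2 reads in any library of batch 1. Lymph node reticular fibroblasts are a known source of IL-7, and of 4 of their markers Ccl19 and Ccl21a were at 0 and Cxcl13 at most at 0.0534 TPM in batch 1, while Pdgfra was at 55.2 to 67.5 TPM in all groups.

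**Figure D1:**
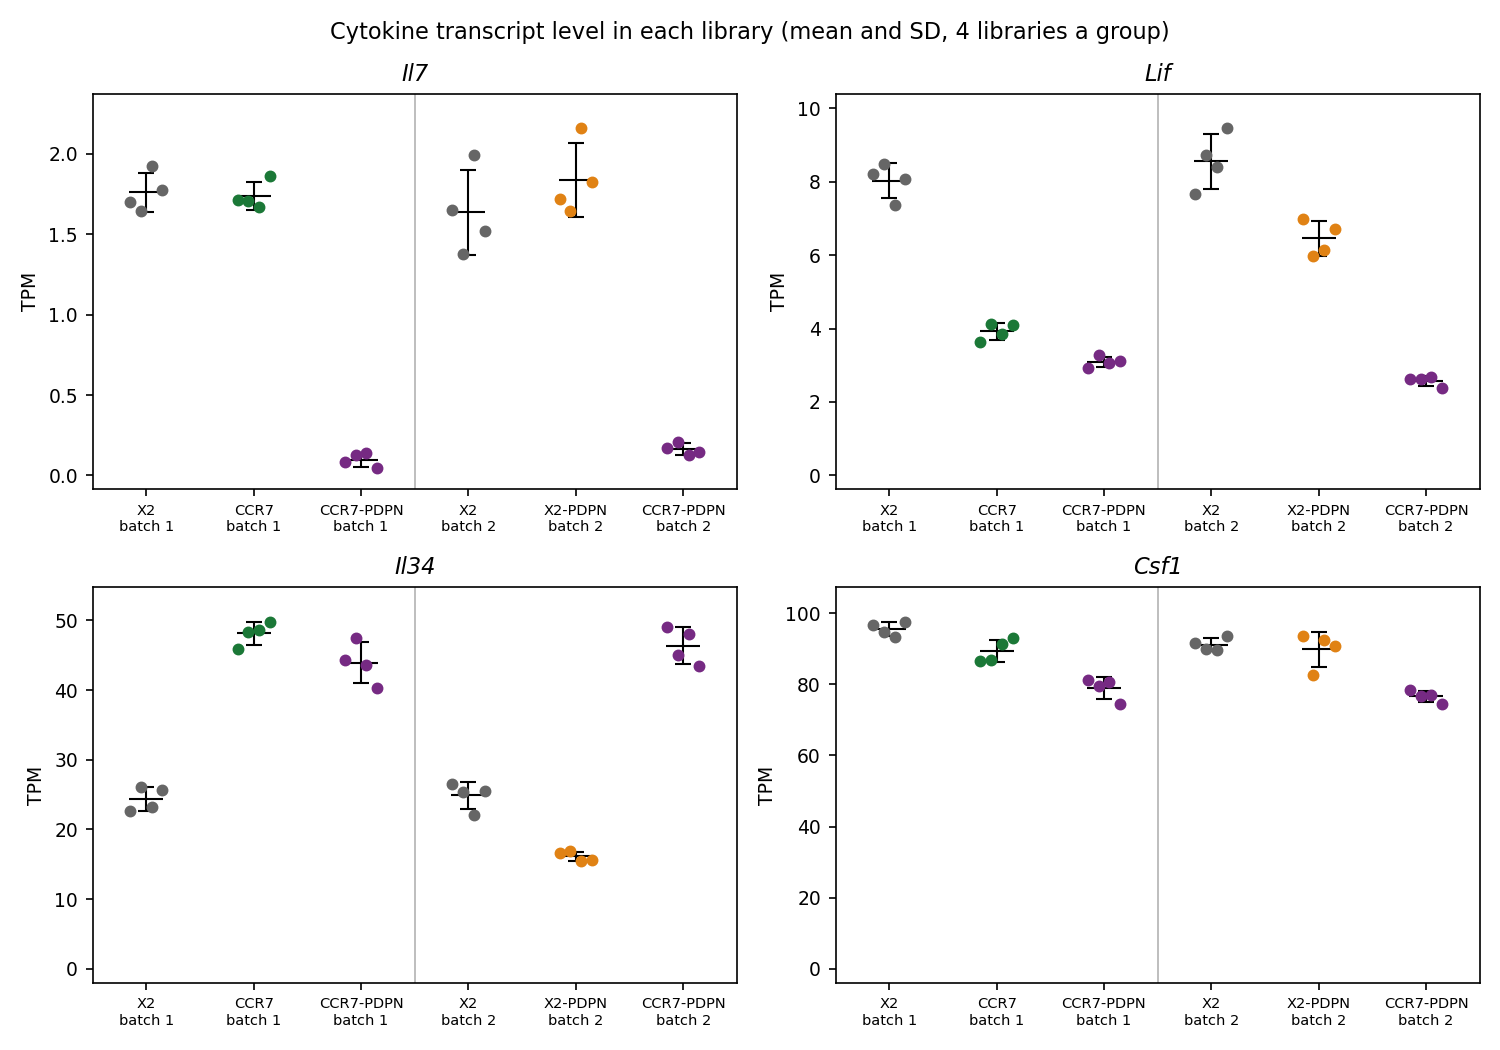
TPM of Il7, Lif, Il34 and Csf1 (y axis, linear, a separate scale for each gene) in every library of the 6 groups (x axis). Points are libraries, the long bar is the mean and the whiskers are the SD of 4 libraries; Il7 is near 0 only in the CCR7-PDPN groups, and the mean of Il34 is 43.9 to 48.1 TPM in the groups with CCR7 and 16.1 TPM in X2-PDPN.

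TSLP and IL-15, the other members tied to the IL-7 receptor subunits, were at the limit of detection. Tslp (ENSMUSG00000024379, chromosome 18) had 8, 3, 5 and 10 reads in the X2 libraries of batch 1, 3, 4, 0 and 2 in CCR7 and 1, 4, 2 and 4 in CCR7-PDPN. Il15 (ENSMUSG00000031712, chromosome 8, 82331632 to 82403222, minus strand) had 12 reads in all 12 libraries together, and no library held more than 3, the floor used here for a read count of 0 (0.0840 to 0.135 CPM, reads scaled to library size, counting error only). Neither gene passed the filter on low counts. With no filter, Tslp had a log2 fold change of -1.51 for CCR7 against X2 (SE 0.62, edgeR adjusted p = 0.058). For CCR7-PDPN against X2 of batch 1 it was -1.28 (SE 0.59, edgeR adjusted p = 0.090). No difference of either gene reached an adjusted p under 0.05 at this depth.

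Of the receptor parts of the members, Il7r, Crlf2, Csf1r, Il18r1 and Lifr were at or near 0: Il18r1 had no read in batch 1, Il7r and Crlf2 had at most 1 read in a library, Lifr at most 2 and Csf1r at most 8. Il2rg, by contrast, was transcribed in all groups and was higher than in X2 in every other derivative. It was at 2.24, 2.74, 1.99 and 2.29 TPM in X2 of batch 1, at 5.13, 4.82, 4.86 and 6.42 TPM in CCR7 and at 4.50, 6.05, 5.83 and 4.70 TPM in CCR7-PDPN. In batch 2 it was at 2.77, 2.77, 2.93 and 2.26 TPM in X2, at 5.99, 5.76, 4.86 and 5.55 TPM in X2-PDPN and at 5.65, 4.38, 4.97 and 4.91 TPM in CCR7-PDPN. All X2 libraries lay below all the others.

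The threshold for a call was an edgeR adjusted p below 0.05 together with a log2 fold change beyond 1 in either direction. The edgeR log2 fold change of Il2rg was 1.19 for CCR7 against X2 (SE 0.15, adjusted p = 8.8e-07), 1.04 for X2-PDPN against X2 (SE 0.13, adjusted p = 7.5e-09, and 0.97 without X2 replicate 4) and for CCR7-PDPN against X2 1.22 in batch 1 (SE 0.15, adjusted p = 3.4e-07) and 0.90 in batch 2, which passed on the adjusted p and not on the fold. The difference between the PDPN differences with and without CCR7 was -1.01 (SE 0.18, edgeR adjusted p = 2.3e-05). That value also contains any difference between batches, and 5.44% of all genes passed the threshold there. Il15ra (12.8 to 15.6 TPM) and Il2rb (1.42 to 2.77 TPM) were transcribed in all groups and passed the threshold in none of the comparisons.

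For the IL-1 family members the ligands were scarce. Il18 (ENSMUSG00000039217, chromosome 9, 50554827 to 50581840) had 4, 4, 5 and 1 reads in X2, 1, 1, 0 and 0 in CCR7 and 0, 6, 2 and 3 in CCR7-PDPN. Its reads may not be told from those of Bco2 on the other strand, which had 28 reads over the X2 libraries, 8 over CCR7 and 18 over CCR7-PDPN, since the strand setting of the counting is not given in the sources used here. Il33 (ENSMUSG00000024810, chromosome 19, 29925114 to 29960718) had 14, 8, 5 and 9 reads in X2 of batch 1, 1, 8, 8 and 9 in CCR7, and 3, 6, 6 and 9 in CCR7-PDPN, where it did not pass the filter.

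In batch 2, Il33 had 15, 9, 12 and 3 reads in X2, 17, 20, 13 and 16 in X2-PDPN and 3, 7, 12 and 7 in CCR7-PDPN. X2-PDPN was the highest group, its 4 libraries all above those of CCR7-PDPN and overlapping those of X2. Il33 entered the batch 2 test only through X2-PDPN, so some difference from that group was built in and its differences from X2-PDPN are given with no test. CCR7-PDPN differed from X2-PDPN by a log2 fold change of -1.05 (SE 0.36) and X2-PDPN from X2 by 0.66 (SE 0.34), while CCR7-PDPN differed from X2 by -0.38 (SE 0.41, edgeR adjusted p = 0.42).

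**Figure D2:**
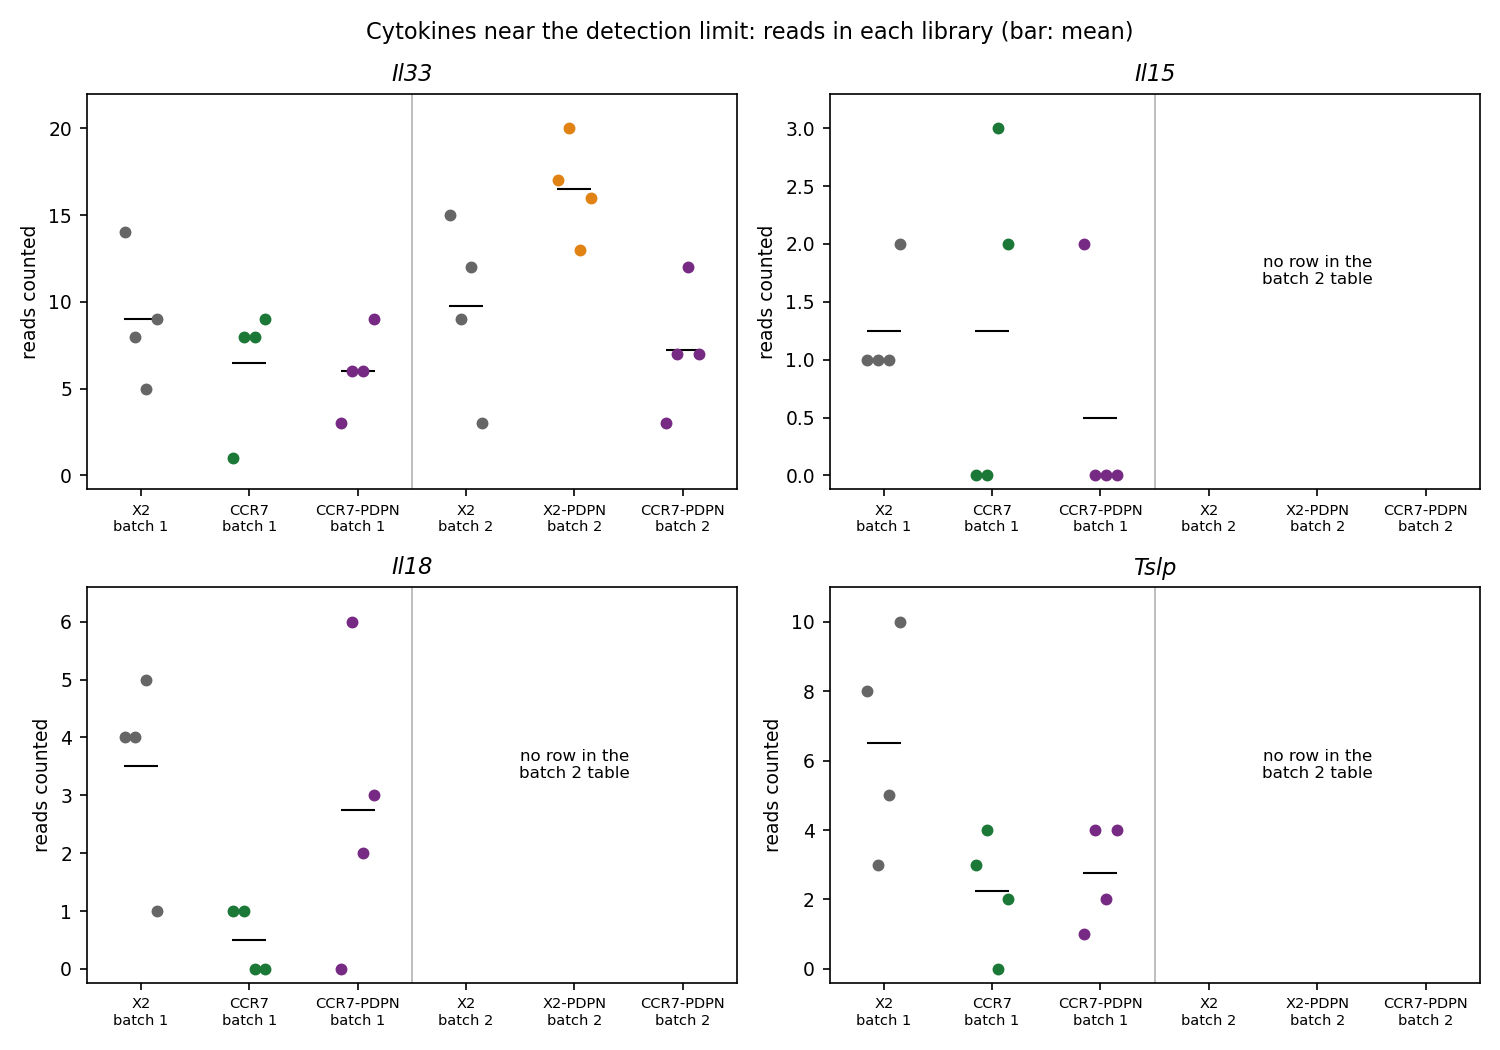
Reads counted (y axis, linear) for Il33, Il15, Il18 and Tslp in every library of the 6 groups (x axis), each point a library and each bar a group mean. Il33 reaches 13 to 20 reads in X2-PDPN, and the other 3 genes stay at or under 10 reads in batch 1 and have no row in batch 2.

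Of the 11 maturation and shedding genes, 6 were tested. Casp1 and Casp4, which encode the inflammatory caspases, were lower past the threshold in the 5 comparisons other than X2-PDPN against X2. That is 2 of 6 in each of them, beside 2.6% to 6.4% of all genes tested. Casp1, the protease that matures IL-18, was at 3.36, 3.03, 3.44 and 3.65 TPM in X2 of batch 1, at 0.773, 0.501, 0.682 and 0.597 TPM in CCR7 and at 0.112, 0.0755, 0.124 and 0.197 TPM in CCR7-PDPN. In batch 2 it was at 3.29, 2.79, 4.15 and 4.07 TPM in X2, at 6.41, 6.56, 6.30 and 5.23 TPM in X2-PDPN and at 0.0518, 0.227, 0.187 and 0.215 TPM in CCR7-PDPN. None of these groups overlapped within a batch, and X2-PDPN was above X2.

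The edgeR log2 fold change of Casp1 was -2.38 for CCR7 against X2 (SE 0.18, adjusted p = 4.2e-10) and -2.28 for CCR7-PDPN against CCR7 (SE 0.34, adjusted p = 1.7e-05). Against X2-PDPN it was -5.05 in CCR7-PDPN (SE 0.23, adjusted p = 1.7e-23). The CCR7-PDPN libraries held only 1 to 6 reads of Casp1, so these folds rest on few reads. Casp4 was at 9.23 to 10.8 TPM in X2 and 0.897 to 1.23 TPM in CCR7-PDPN of batch 1. Its log2 fold change was -1.17 for CCR7 against X2 (SE 0.09), -3.19 and -3.14 for CCR7-PDPN against X2 in batches 1 and 2, and -0.30 for X2-PDPN against X2, which did not reach the fold threshold. Il1rap, the shared accessory chain of the IL-1 and IL-33 receptors, was at 13.4 TPM in X2 and 4.63 TPM in CCR7-PDPN of batch 1, a log2 fold change of -1.52 (SE 0.05, edgeR adjusted p = 4.3e-16), and fell by 1.43 in batch 2. Il1rl1, the chain of that receptor that binds IL-33, was scarce, with 7 to 17 reads in X2 of batch 1, at most 4 in CCR7 and at most 1 in CCR7-PDPN, and 4 to 13 in X2 of batch 2, 2 to 7 in X2-PDPN and 0 to 2 in CCR7-PDPN, and did not pass the filter within either batch. Il18rap, a chain of the IL-18 receptor, had at most 9 reads in a library of X2, at most 4 in one of CCR7 and at most 1 in one of CCR7-PDPN.

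Csf1 was the most abundant of the 8, and its log2 fold change lay between -0.25 and -0.03 in the 6 comparisons. The gene (ENSMUSG00000014599, chromosome 3, 107741048 to 107760469, minus strand) stood at 96.5, 94.6, 93.4 and 97.6 TPM in X2 of batch 1, at 86.5, 86.8, 91.2 and 92.9 TPM in CCR7 and at 81.0, 79.5, 80.6 and 74.4 TPM in CCR7-PDPN. The 3 groups did not overlap. In batch 2 it stood at 91.5, 89.9, 89.5 and 93.5 TPM in X2, at 93.4, 82.6, 92.5 and 90.8 TPM in X2-PDPN and at 78.3, 76.6, 77.0 and 74.5 TPM in CCR7-PDPN. X2 and X2-PDPN overlapped, and CCR7-PDPN was below both.

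The edgeR log2 fold change of Csf1 in CCR7-PDPN was -0.15 against CCR7 (SE 0.03, adjusted p = 9.4e-04), -0.25 and -0.23 against X2 in batches 1 and 2, and -0.20 against X2-PDPN, all past the adjusted p and none past a 2-fold change. X2-PDPN differed from X2 by -0.03 (SE 0.03, edgeR adjusted p = 0.47). The tested genes within 5 Mb of Csf1 had medians of 0.00 to 0.03 in the 4 comparisons without X2-PDPN, 0.10 for X2-PDPN against X2 and -0.07 for CCR7-PDPN against X2-PDPN.

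Il34 was near double in the cells with CCR7 and lower in X2-PDPN. The gene (ENSMUSG00000031750, chromosome 8, 110741829 to 110805924, minus strand) was at 22.6, 26.0, 23.3 and 25.6 TPM in X2 of batch 1, at 45.9, 48.3, 48.6 and 49.8 TPM in CCR7 and at 44.3, 47.5, 43.6 and 40.3 TPM in CCR7-PDPN. X2 lay below both other groups, which overlapped. In batch 2 it was at 26.5, 25.3, 22.1 and 25.6 TPM in X2, at 16.6, 16.9, 15.5 and 15.6 TPM in X2-PDPN and at 49.1, 45.0, 48.1 and 43.4 TPM in CCR7-PDPN, with no overlap between groups.

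The edgeR log2 fold change of Il34 was 0.98 for CCR7 against X2 (SE 0.06, adjusted p = 6.7e-12), -0.63 for X2-PDPN against X2 (SE 0.07, adjusted p = 1.9e-10) and 1.54 for CCR7-PDPN against X2-PDPN (SE 0.06, adjusted p = 7.2e-25). CCR7-PDPN differed from CCR7 by -0.10 (SE 0.05, edgeR adjusted p = 0.13). With Csf1 changing little, the Il34 share of the summed Csf1 and Il34 TPM, a measure chosen after the values were seen, was 20.3% ± 1.12 (SD, n = 4) and 21.4% ± 1.15 in the X2 groups, 15.3% ± 1.18 in X2-PDPN, 35.0% ± 0.497 in CCR7, and 35.7% ± 1.11 and 37.7% ± 0.917 in CCR7-PDPN. The share in every library with CCR7 (at least 34.7%) was above that in every library without (at most 22.5%).

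Il34 did not move alone. The 80 other genes tested within 5 Mb of it in batch 1 had a median log2 fold change of 1.02 for CCR7 against X2, and 75 of them rose at an adjusted p under 0.05 while 1 fell. For X2-PDPN against X2 the 78 genes tested in batch 2 had a median of -0.26, with 52 lower and 3 higher, and for CCR7-PDPN against X2-PDPN a median of 1.38, with 73 higher and 1 lower. Relative to that median, Il34 differed by -0.037 for CCR7 against X2, by -0.36 for X2-PDPN against X2 and by 0.16 for CCR7-PDPN against X2-PDPN. The copy number of this stretch was not measured. Gm15894, on the opposite strand of Il34, had 30 reads over the X2 libraries of batch 1, 63 over CCR7 and 80 over CCR7-PDPN.

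**Figure D3:**
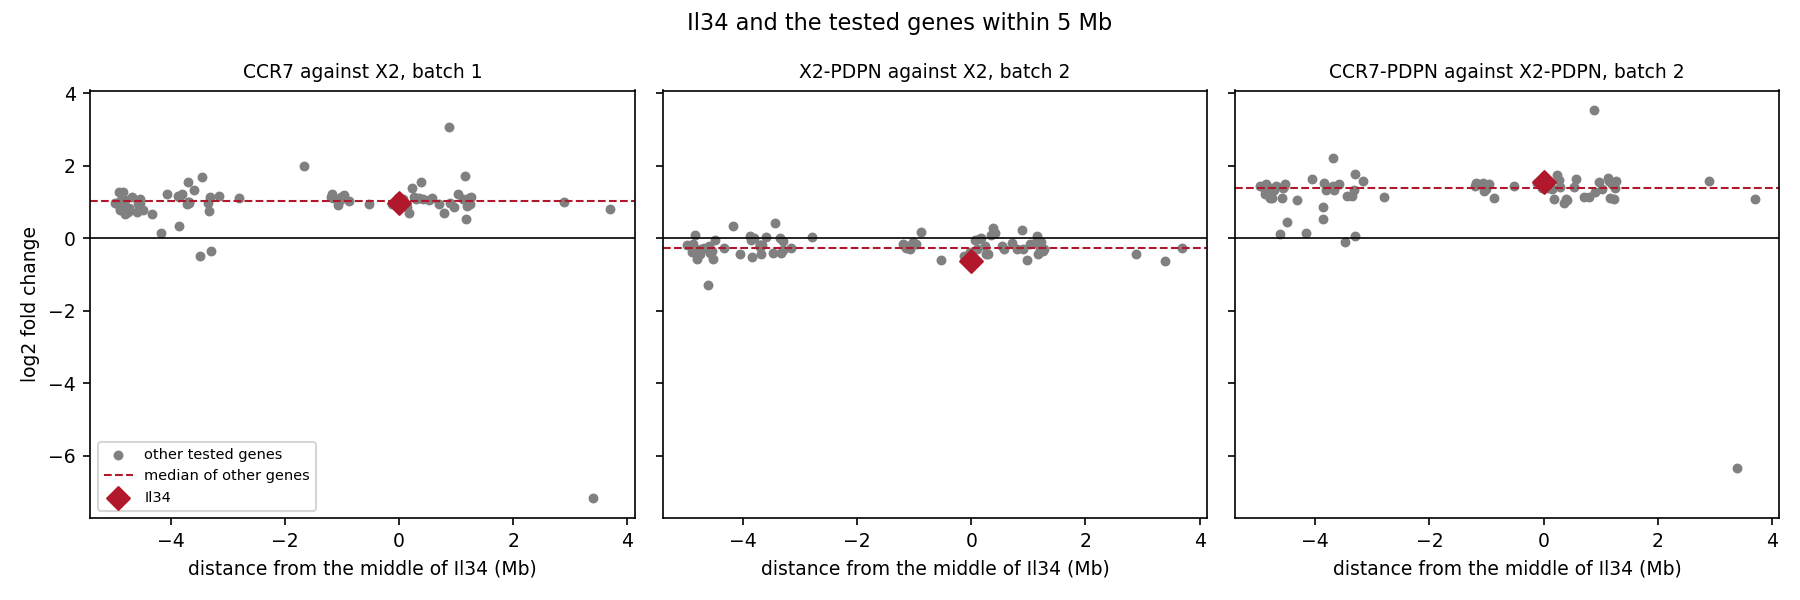
Log2 fold change (y axis) of the tested genes against their distance in Mb from Il34 (x axis) in 3 comparisons, with Il34 as a diamond and the median of the other genes as a dashed line. The distance runs between the lower coordinates of the genes, although the axis label names the middle of Il34. The other genes cluster around 1.02, -0.26 and 1.38 from left to right, and Il34 lies close to the line at the left and the right and below it in the middle.

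Lif fell by degrees across the derivatives. The gene (ENSMUSG00000034394, chromosome 11, 4257557 to 4272514, plus strand) was at 8.20, 8.48, 7.35 and 8.08 TPM in X2 of batch 1, at 3.64, 4.12, 3.86 and 4.11 TPM in CCR7 and at 2.93, 3.27, 3.05 and 3.12 TPM in CCR7-PDPN. In batch 2 it was at 7.65, 8.73, 8.39 and 9.46 TPM in X2, at 6.97, 5.97, 6.15 and 6.72 TPM in X2-PDPN and at 2.61, 2.62, 2.67 and 2.38 TPM in CCR7-PDPN. No 2 groups overlapped within a batch.

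In the edgeR fits Lif fell by 1.03 on the log2 scale in CCR7 against X2 (SE 0.08, adjusted p = 5.8e-10), and in CCR7-PDPN by 0.32 against CCR7 (SE 0.09, adjusted p = 0.0083), by 1.35 against X2 of batch 1, by 1.71 against X2 of batch 2 (SE 0.09, adjusted p = 2.4e-20) and by 1.29 against X2-PDPN. X2-PDPN was lower than X2 by -0.42 (SE 0.08, edgeR adjusted p = 1.3e-05). The PDPN difference with CCR7 minus that without was 0.11 for Lif (SE 0.12, edgeR adjusted p = 0.51). The 77 or 78 tested genes within 5 Mb of Lif had medians within 0.05 of 0. Of the chains through which LIF signals, Lifr had at most 2 reads, whereas Il6st was at 40.5 to 53.9 TPM and passed the fold threshold in none of the comparisons.

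**Figure D4:**
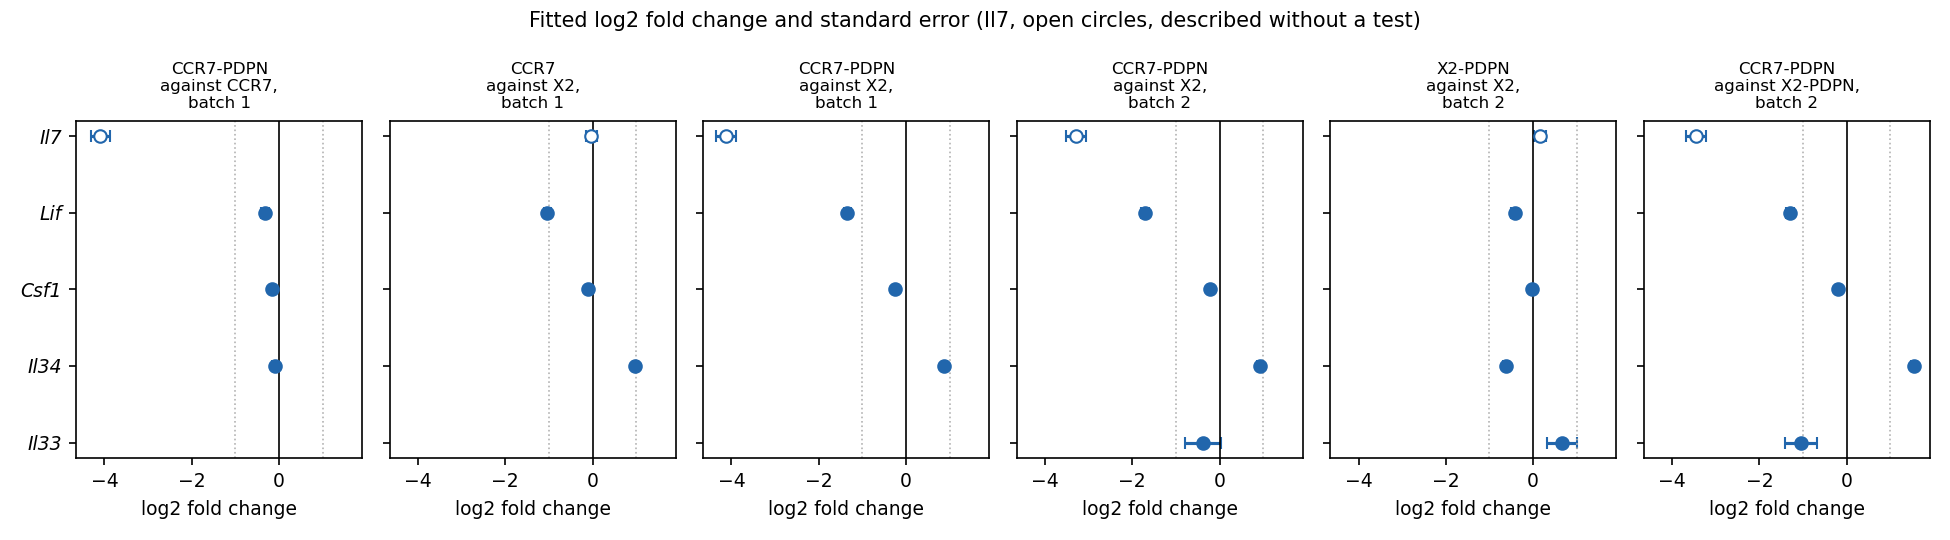
Fitted log2 fold change with its standard error (x axis) of Il7, Lif, Csf1, Il34 and Il33 (y axis) in the 6 comparisons, with dotted lines at -1 and 1. Il7 is at -3.30 or below in the 4 comparisons of CCR7-PDPN and near 0 in the other 2, Csf1 lies between -0.25 and -0.03 throughout, and Il33 was fitted in batch 2 only.

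Counted over the members other than Il7, 3 of 7 passed the filter in batch 1 (Csf1, Il34 and Lif) and 4 of 7 in batch 2 (with Il33). Il33 is left out of the counts, since it passed through X2-PDPN alone. On both conditions of the threshold, 0 of 3 passed for CCR7-PDPN against CCR7, where 3.27% of all genes tested did. The count was 1 of 3 (Lif) for CCR7 against X2, beside 6.48% of all genes, with Il34 just short of it and 2 passing without X2 replicate 2 or 4. The count was 1 of 3 (Lif) for CCR7-PDPN against X2 of batch 1, beside 9.45%. In batch 2 it was 1 of 3 (Lif) for CCR7-PDPN against X2, beside 9.63%, 0 of 3 for X2-PDPN against X2, beside 5.05%, and 2 of 3 (Il34 higher, Lif lower) for CCR7-PDPN against X2-PDPN, beside 9.16% (2.76% higher and 6.4% lower). The PDPN difference with CCR7 minus that without passed in 0 of 3, beside 5.44%, although it passed the adjusted p alone for Il34 (0.53, SE 0.09, edgeR adjusted p = 6.9e-06) and Csf1 (-0.12, SE 0.05, edgeR adjusted p = 0.033), where 40.8% of all genes did. The Csf1 call was lost when any of 7 libraries was left out (CCR7 replicate 3 or 4, CCR7-PDPN replicate 4 of batch 1, X2 replicate 2 or 3 of batch 2, X2-PDPN replicate 1 or 4). Groups of 4 that do not overlap were common: 34.1% of genes for CCR7-PDPN against CCR7, 44.1% for CCR7 against X2, 50.6% for X2-PDPN against X2, 58.7% and 57.5% for CCR7-PDPN against X2 in batches 1 and 2, and 54.8% for CCR7-PDPN against X2-PDPN. With 3 members counted, nothing is read from these counts about the members as a set.

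X2 and CCR7-PDPN were sequenced in both batches and allow the levels to be set side by side. TPM was scaled over the 55471 genes of batch 1 and the 13915 of batch 2, so the ratios also contain that difference. The batch 2 mean divided by the batch 1 mean was 0.928 for Il7 in X2, 1.02 for Il34, 0.954 for Csf1, 1.07 for Lif and 1.06 for Il33. In CCR7-PDPN it was 1.06 for Il34, 0.971 for Csf1, 0.832 for Lif and 1.24 for Il33, and 1.67 for Il7, where 18 reads in batch 1 stand against 28 in batch 2.

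Few other cytokines were transcribed. Of 34 listed, 4 had no read in batch 1, 17 had at most 3 reads in every library of it and 8 reached a mean of 1 TPM in some group (Il11, Il23a, Il24, Ctf1, Clcf1, Kitl, Flt3l and Tnf). None of the 9 tested passed the threshold for CCR7-PDPN against CCR7. For CCR7 against X2, 1 rose (Il16) and 3 fell (Il11, Il24 and Tnf), where 3.3% of all genes tested rose and 3.18% fell. Il16 passed the filter only through libraries with CCR7, Il24 only through X2 in each batch, and Tnf only through X2 in batch 1. Some difference from X2 was therefore built in for them, and no adjusted p is given. The Il16 call was lost with only the 2 groups compared. For CCR7-PDPN against X2, 3 fell in each batch (the same 3, beside 5.36% and 5.67% of all genes). For X2-PDPN against X2, 1 of 8 fell (Il24, beside 1.55%), and 2 of 8 for CCR7-PDPN against X2-PDPN (Il11 and Tnf, beside 6.4%). With a filter of 50 counts in 4 libraries, 0 fell for X2-PDPN against X2 and 1 in each of the other comparisons with a fall, and Il16 was no longer called. The median log2 fold change of the tested cytokines ranged from -0.43 to 0.04, where that of all genes was 0.00 in every comparison.

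Il11, an IL-6 family cytokine like LIF, was at 3.88, 3.74, 2.90 and 3.24 TPM in X2 of batch 1, at 1.11, 1.70, 0.866 and 1.06 TPM in CCR7 and at 1.18, 1.14, 0.875 and 1.54 TPM in CCR7-PDPN. The X2 libraries stood apart from the other 8, with an edgeR log2 fold change of -1.54 for CCR7 against X2 (SE 0.21, adjusted p = 3.4e-06). Tnf, the inflammatory cytokine, had 15 to 25 reads in X2 and 5 to 11 in CCR7 (log2 fold change -1.46, SE 0.29, given with no test). Il24 had 15 to 30 reads in X2 of batch 1 and 3 to 9 in each of CCR7 and CCR7-PDPN, and in batch 2 it had 18 to 27 reads in X2, 3 to 7 in X2-PDPN and 2 to 8 in CCR7-PDPN. Unlike Il11 and Tnf, it fell in X2-PDPN against X2 as well, by 2.31 on the log2 scale (SE 0.35). Il24 passed the filter only through X2, so part of that fall was built in and it is given with no test. Il16 had at most 22 reads in a library.

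**Figure D5:**
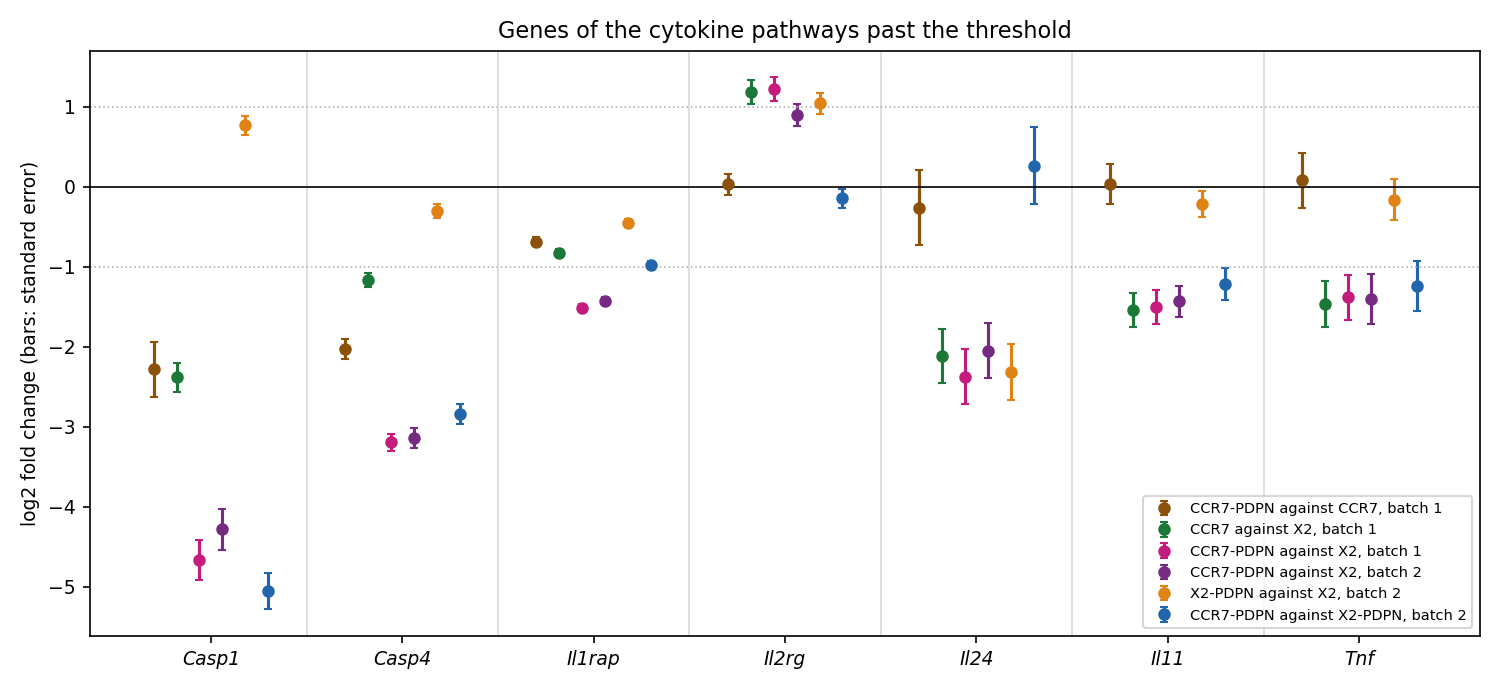
Log2 fold change with its standard error (y axis) in the 6 comparisons, by colour, for 7 genes of the receptor, maturation and other cytokine lists (x axis) that passed the threshold in some comparison, with dotted lines at -1 and 1. Casp1 is -2.28 to -5.05 in 5 comparisons and 0.77 for X2-PDPN against X2, and Il2rg is the gene of the 7 that is higher than X2 in every derivative.

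Of 15 signalling genes (JAK and STAT proteins, SOCS inhibitors and the MyD88 adaptor chain), 13 were tested and 0 passed the threshold in any comparison, with medians of 0.03 to 0.14. On the adjusted p alone, 5 passed for CCR7-PDPN against CCR7 (41.6% of all genes), 7 for CCR7 against X2 (49.3%), 10 and 12 for CCR7-PDPN against X2 in batches 1 and 2 (60.9% and 64.8%), 8 for X2-PDPN against X2 (56.8%) and 9 for CCR7-PDPN against X2-PDPN (63.2%). Myd88, the adaptor of the IL-1 family receptors, named after its values were seen, had means of 18.4 TPM in X2, 30.8 TPM in CCR7 and 31.1 TPM in CCR7-PDPN of batch 1 and 17.5, 20.9 and 30.5 TPM in X2, X2-PDPN and CCR7-PDPN of batch 2. Its edgeR log2 fold change was 0.74 for CCR7 against X2 (SE 0.06, adjusted p = 3.0e-09) and 0.82 for CCR7-PDPN against X2 of batch 2 (SE 0.06, adjusted p = 7.5e-16). Socs3, an inhibitor of gp130 signalling named in the same way, was at 59.5 TPM in X2, 76.8 TPM in X2-PDPN and 52.9 TPM in CCR7-PDPN of batch 2, a log2 fold change of -0.51 between the last and X2-PDPN (SE 0.04, edgeR adjusted p = 1.4e-16). Of 15 receptors and binding proteins, 7 were tested and at most 1 in each direction passed (Il2rg higher, Il1rap lower), with medians of -0.14 to 0.16, and the 6 tested maturation genes had medians of -0.16 to 0.13. The 10 interferon reference genes are a list the study's own account of these libraries had brought forward, and so no independent evidence of its direction. Lower past the threshold were 3 of 10 for CCR7-PDPN against CCR7 (beside 2.6% of all genes), 3 for CCR7 against X2 (3.18%) and 4 for X2-PDPN against X2 (1.55%). For CCR7-PDPN the count was 6 and 7 against X2 in batches 1 and 2 (5.36% and 5.67%) and 3 against X2-PDPN (6.4%). Ifit3 is among the 4, the 6 and the 7. It passed the filter only through X2 in each batch, so part of its difference from X2 was built in. In these comparisons 0 were higher, and the medians were -1.72 to -0.09. Irf7, an interferon-induced factor, fell by 2.72 in X2-PDPN against X2 and differed by 0.16 between CCR7-PDPN and X2-PDPN. The 3 lower in CCR7-PDPN against X2-PDPN were Rsad2 (-1.30), Ifit1 (-1.43) and Ifit3 (-2.32, at most 12 reads a library). For X2-PDPN against X2 these stood at -0.36, -0.36 and -1.56. Il7 was near level in X2-PDPN against X2 and lower in CCR7-PDPN against X2-PDPN. Whether Il7 follows the interferon genes was not tested.

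Likeness of pattern was measured as Pearson's r over the 24 libraries between log2 CPM, each taken relative to the X2 mean of its batch, among the 10532 genes with a mean of at least 1 on that scale. Libraries of a group are technical replicates, so the values describe at most 6 group levels. The X2 groups of both batches have the same mean by construction, and CCR7-PDPN enters from both batches. The genes most like Il7 were Rhd (r = 0.98), Hivep3 (0.97) and Cdca7 (0.97). Rhd had mean levels of 19.0, 15.6 and 5.07 TPM in X2, CCR7 and CCR7-PDPN of batch 1 and of 19.7, 20.2 and 5.33 TPM in X2, X2-PDPN and CCR7-PDPN of batch 2. Hivep3 went from 4.04 TPM in X2 to 0.541 TPM in CCR7-PDPN of batch 1, while Cdca7 went only from 130.3 to 106.5 TPM.

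The genes most like Il34 were Prmt7, Taf5l and Hsdl1 (r = 0.99 each), all 3 on chromosome 8 between 106210936 and 124021397, and Prmt7 is within the 5 Mb window. The genes most like Lif were Plat, the tissue plasminogen activator, Pak1 and Kyat3 (r = 0.98 each), and the batch 1 means of Plat were 16.7 TPM for X2, 5.12 TPM for CCR7 and 2.62 TPM for CCR7-PDPN. Those most like Csf1 were Gaa (0.96), Laptm4b (0.96) and Psap (0.95), of which Gaa and Psap encode lysosomal proteins. For Il33 the highest r was 0.75, with Cep290.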

How the data were processed

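RNA of 4 EO771 derivatives was sequenced by the study in 24 libraries (poly(A)-selected, stranded kit, single-end reads of 75 bases) in 2 batches, and reads were mapped to GRCm38/mm10 per the labels. The authors deposited whole-number read counts per gene, one table a batch. The aligner, its version and the strand setting of the counting are not given in the sources used here. The batch 2 table holds only genes that reach 10 counts in a library.

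Counts were tested with edgeR 4.0.16 in R 4.3.3 (TMM factors of 0.986 to 1.02, filterByExpr, robust quasi-likelihood test, Benjamini-Hochberg adjustment over the 13261 genes of batch 1, 13314 of batch 2 or 13690 of both). Each comparison was made within a batch over its 12 libraries, and the PDPN difference with and without CCR7 was compared in 1 fit over 24 libraries. The threshold was an adjusted p under 0.05 with an absolute log2 fold change above 1. TPM was computed from counts and the gene lengths given with the batch 1 counts, and fold changes come from the fits. GENCODE M21 gave the overlapping genes. The method was tested on simulated data. The floor of a 0 count was 3 counts.

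The members and the gene lists were chosen with earlier results of these data known, so no list was tested as a set. Named are the 8 members, list genes past the threshold or binding a member, and the 3 genes most like each member. Alternatives were DESeq2 1.42.0, other factors and filters, only the groups compared, a replicate block, and each library left out. The subtraction of the neighbours' median and the Il34 share were chosen after seeing the data. Replicate numbers did not pair libraries: deviations of same-numbered libraries correlated at a median of -0.022 in batch 1 and 0.026 in batch 2.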

Additional observations from a re-analysis of the deposited data

Results flagged for a closer look

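Il15 had 2 reads in CCR7-PDPN batch 1 replicate 1 and none in the other 3 libraries of the group, so that its TPM there (0.1034) was far from the rest. Of 39 groups of 4 looked at in this way, chance alone would mark about 1 in 20, and 2 reads are under the floor of 3 counts. The PDPN difference with CCR7 minus that without differed from 0 for Il34 (0.5255 on the log2 scale) and for Csf1 (-0.1223). Batch and CCR7 status cannot be told apart in these differences, and 40.8% of all genes passed the same adjusted p. For Csf1 the call was lost without any 1 of 7 libraries, and relative to the median of the genes within 5 Mb its value was 0.0083.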

How the results depend on the processing

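The counts of members past the threshold were the same with DESeq2, RLE or upper-quartile factors, only the groups compared and a replicate block (1 for CCR7 against X2 and, with Il33 included, 3 for CCR7-PDPN against X2-PDPN with the replicate block, which changed no call on a member). A filter of 50 counts in 4 libraries left 2 for CCR7-PDPN against X2-PDPN, as Il33 was not tested, and 2 to 3 passed there when 1 library was left out. For CCR7 against X2 the count became 2 with no filter on low counts, as Il18 (log2 fold change -2.58) joined Lif, and ranged from 1 to 2 when 1 library was left out. Without X2 replicate 2 or 4 of batch 1, Il34 passed as well (1.01 and 1.00), and without CCR7 replicate 1 of batch 1 Il34 (1.00) passed in place of Lif (-0.999). For the PDPN difference with CCR7 minus that without, 1 to 2 members passed the adjusted p alone: Csf1 was lost without CCR7 replicate 3 or 4 or CCR7-PDPN replicate 4 of batch 1, X2 replicate 2 or 3 of batch 2, or X2-PDPN replicate 1 or 4. Csf1 in X2-PDPN against X2, never called, ranged from -0.048 to 0.0072 and changed sign without X2-PDPN replicate 2 (0.0072), and Il33 in that comparison became 0.98 without X2 replicate 1 of batch 2. With the median of the genes within 5 Mb subtracted, Il34 changed sign for CCR7 against X2 (-0.037) and for CCR7-PDPN against X2 in batch 1 (-0.30) and batch 2 (-0.23), and Csf1 changed sign for the PDPN difference (0.0083), because that alternative removes what the neighbours share. Of the other genes named, Il2rg in X2-PDPN against X2 fell below the fold threshold without X2 replicate 4 of batch 2 (0.97), and without CCR7 replicate 1 of batch 1 the interferon reference genes lower in CCR7 against X2 became 5. With lower filters or with a library of CCR7 or CCR7-PDPN left out, which lowers the filter, 1 further cytokine, Il1rn, came in and fell in CCR7-PDPN against CCR7. The receptor count lower for CCR7 against X2 rose from 0 to 1 (Il2rb) without replicate 3 of X2 or of CCR7, and to 3 with no filter. Il7 in CCR7-PDPN stayed between -4.32 and -3.17 in all alternatives against X2. Depth limits Il15, Il18, Tslp and Il33, with at most 20 reads a library.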
